A study of Mus musculus with 11 samples.

Results

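The genes described here encode the enzymes and transporters of glycolysis and of the pentose phosphate pathway, together with the sensors and targets of the cellular response to low oxygen, in cultured mouse CD8+ T cells. They were taken from a list of 36 genes by name. A gene was used if the array had a probe set annotated to it alone, and was read by whichever such probe set had the highest mean over the 11 arrays. This held for 32 of the 36 genes, and all 32 lay above the filter on low values, among 14795 genes tested of 18193 with a usable probe set. Gpi1, Eno1, G6pdx and Gapdh had no probe set of this kind.

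Messenger RNA was measured on 11 Affymetrix oligonucleotide arrays of pmel-1 transgenic CD8+ T cells, which carry a T cell receptor for a peptide of the melanocyte protein gp100. Starting cells were CD44- (naive) or CD44+ (central memory). All cells were activated on plate-bound CD3/CD28, kept for a week, restimulated on allogeneic feeder cells carrying the hgp100(25-33) peptide, and kept in 10 cetus units of IL2, with a culture of 2 weeks given for all groups. The cells were then left without a further stimulus or received a final CD3/CD28 stimulation for 4 h. The groups were memory-derived unstimulated (n = 3 arrays), memory-derived stimulated (n = 3), naive-derived unstimulated (n = 2) and naive-derived stimulated (n = 3), from 3 independent experiments. All groups had therefore been activated before the final stimulus, and unstimulated means only that this stimulus was left out. The age and sex of the mice are not given in the sources used here.

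Glycolysis splits glucose into pyruvate, which is either passed to the mitochondrion or reduced to lactate and exported, and activated T cells take up and ferment glucose at a high rate. The pentose phosphate pathway branches off at glucose-6-phosphate and supplies NADPH and the ribose of nucleotides. Many genes of these pathways are targets of hypoxia-inducible factor, whose alpha subunits are marked for destruction by oxygen-dependent prolyl hydroxylases, and in T cells this factor can also be raised by receptor signals and by IL2 at normal oxygen.

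Deposited values were turned to log2, and every level and difference below is on that scale, where a difference of 1 is a doubling if the deposited values are log10, as inferred from spiked controls. Levels of different genes cannot be set against each other, since each probe set has its own brightness. All 6 CD8 T cell markers (Cd3e, Cd3d, Cd3g, Cd8a, Cd8b1, Thy1) lay above the filter on every array, while Cd4, Ms4a1, Cd79a and Alas2, which mark helper T cells, B cells and erythroid cells, lay below it on every array. Other markers of these and further cell types passed the filter on part of the 11 arrays at low log2 levels: the B cell genes Blk on 10 arrays (1.33 to 2.59) and Cd79b on 6 (1.15 to 1.98), the regulatory T cell gene Foxp3 on 4 (1.13 to 1.74), the erythroid gene Hba-a1 on 3 (0.77 to 1.85) and the NK cell gene Ncr1 on 2 (1.06 to 1.61). The summed log2 level of 7 myeloid and dendritic cell markers was 6.46 to 6.98 in memory-derived unstimulated cells, 6.12 to 6.30 in memory-derived stimulated cells, 5.40 to 5.69 in naive-derived unstimulated cells and 5.26 to 5.70 in naive-derived stimulated cells. The levels were summed on the linear scale before the log2 was taken. Itgax gave the largest part of this sum on every array, at log2 levels of 4.13 to 6.65, and the other 6 markers reached at most 2.91. A control for RNA length, the log2 difference between the 3' and 5' probe sets of actin, was 0.88 to 1.17 in memory-derived unstimulated cells, 1.43 to 1.73 in memory-derived stimulated cells, 1.54 to 1.59 in naive-derived unstimulated cells and 1.93 to 2.60 in naive-derived stimulated cells. The same difference for the Gapdh controls did not rise with it, with ranges (overlapping except between the stimulated groups) of -1.51 to -1.29, -1.43 to -1.38, -1.65 to -1.42 and -1.82 to -1.48 in the same order of groups. The myeloid sum and the actin difference moved with origin or stimulation, and their part in the gene results was not tested. In bulk RNA, fewer cells of a type and less RNA per cell cannot be told apart.

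Stimulation of memory-derived cells changed 15 of the 32 genes at an adjusted p below 0.05. Hexokinase 2, the lactate transporter Slc16a1, the glucose transporter Slc2a1 and the hypoxia targets Vegfa, P4ha1 and Ankrd37 rose, while 9 genes fell, among them Pdk1, Hk1, Bnip3 and Ddit4. The 6 genes that rose were 18.8% of the set, where 14.3% of all genes tested rose, and the 9 that fell were 28.1%, where 17.3% of all genes fell. In all, 31.6% of genes tested passed in this comparison. The median log2 difference of the 32 genes was -0.13, beside 0.00 over all genes tested. Glycolytic enzymes did not move as a block: of 11 measured between hexokinase and pyruvate kinase, 1 rose, 3 fell and 7 did not pass.

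The same stimulus in naive-derived cells changed none of the 32 genes at that threshold by limma, with 2 at an unadjusted p below 0.05 (8.46% of all genes). This has to be read against 2 genes called of 14795, or 0.0135%, in that comparison, where 1252 had an unadjusted p below 0.05. For 4 of the 32 genes (12.5%, and 13.6% of all genes) every stimulated array lay above every unstimulated array, and for 5 (15.6%, and 12.8% of all genes) every one lay below. The median log2 difference of the 32 genes was 0.03, beside 0.01 over all genes. Without the final stimulus, naive-derived cells had 9 of the 32 genes higher (28.1%) and 6 lower (18.8%) than memory-derived cells, where 10.9% and 14.9% of all genes tested were higher and lower and 25.8% passed in either direction. Their median log2 difference was 0.05, beside -0.01 over all genes. After stimulation 1 of the 32 genes was higher in naive-derived cells and 0 were lower, where 3.7% of all genes tested passed (1.69% higher and 2.01% lower) by limma. At an unadjusted p below 0.05 there were 9 of the 32 genes, and 16.3% of all genes. Stimulation of memory-derived cells and origin without stimulation share the 3 memory-derived unstimulated arrays, so they are not separate evidence. Across all 5 comparisons 20 genes passed at least 1 test and 12 passed none. The share of all genes passing at least 1 test was not counted, so the 20 have no background to be set against.

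**Figure D1:**
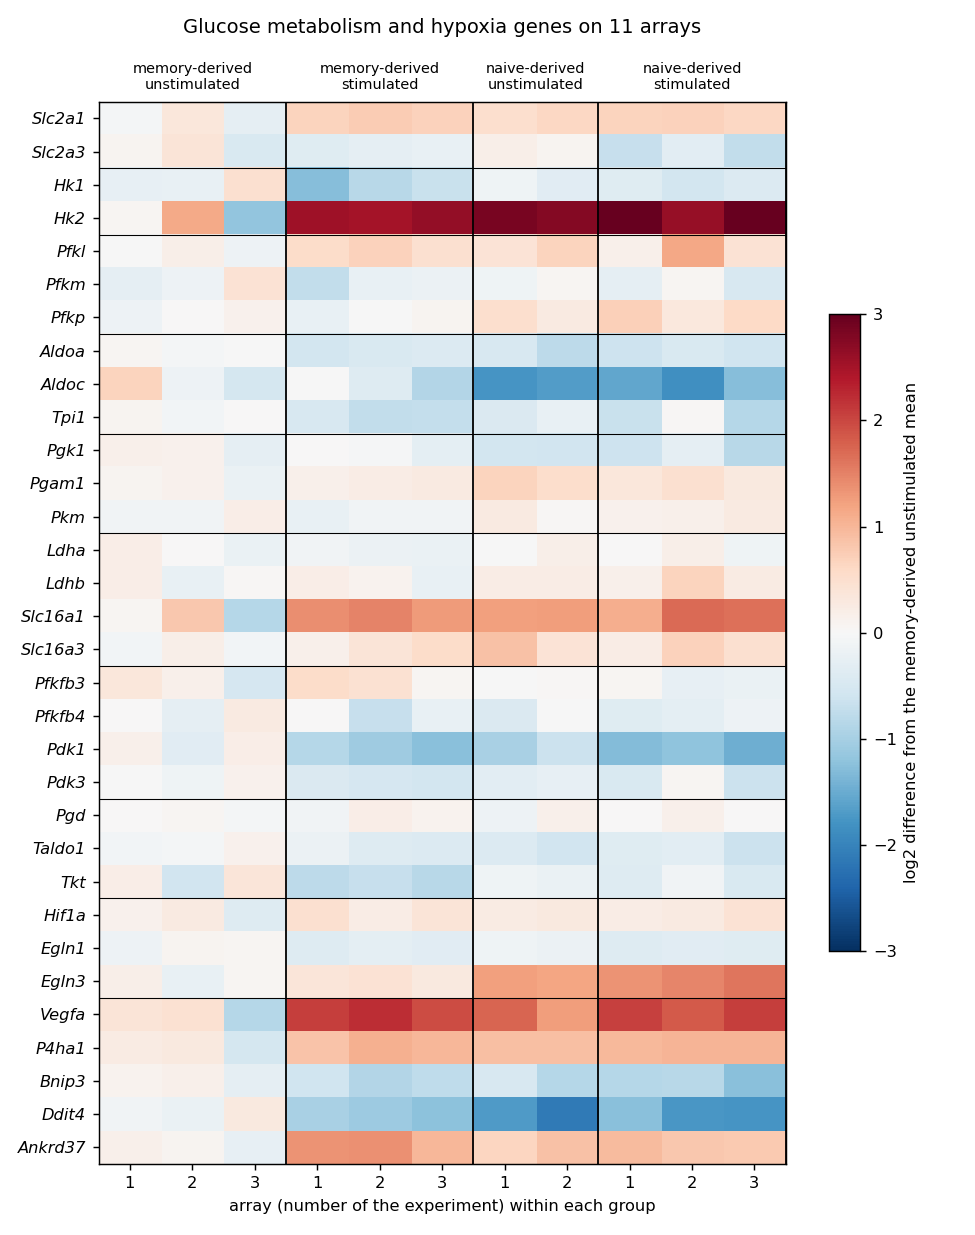
Log2 difference of each of the 32 genes (rows, grouped by role) from the mean of the memory-derived unstimulated arrays, on each of the 11 arrays (columns, numbered by experiment within a group). Hk2, Slc16a1 and Vegfa are lowest on memory-derived unstimulated array 3 and high on every array of the other 3 groups, while Aldoc is low and Egln3 is high on all 5 naive-derived arrays.

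Glucose enters T cells through facilitative transporters, and hexokinases trap it as glucose-6-phosphate. Slc2a1, which encodes the transporter GLUT1, had log2 levels of 6.04, 6.45 and 5.85 on the memory-derived unstimulated arrays, 6.78, 6.88 and 6.79 on the memory-derived stimulated arrays, 6.61 and 6.74 on the naive-derived unstimulated arrays and 6.78, 6.81 and 6.74 on the naive-derived stimulated arrays. All 8 arrays outside the memory-derived unstimulated group thus lay above its 3 arrays. Stimulation raised Slc2a1 in memory-derived cells by a log2 difference of 0.71 ± 0.15 (SE, adjusted p = 0.00486, limma), and the response in naive-derived cells was 0.10 ± 0.17 (adjusted p = 0.919). Without stimulation the naive-derived cells were higher by a log2 difference of 0.56 ± 0.17 (adjusted p = 0.0303). The origin call ended with the experiments as a block (adjusted p = 0.0508), and on omitting memory-derived unstimulated array 1 or 3 or either naive-derived unstimulated array (adjusted p = 0.0728 to 0.17). Slc2a3, which encodes the transporter GLUT3, passed no test. Its log2 difference on stimulation was -0.28 ± 0.20 in memory-derived cells (adjusted p = 0.326) and -0.71 ± 0.23 in naive-derived cells (adjusted p = 0.436), and on omitting memory-derived unstimulated array 3 the first became -0.52 (adjusted p = 0.0433).

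Hexokinase 2, the inducible hexokinase, showed the widest range of all 32 genes. Hk2 had log2 levels of 5.25, 6.33 and 4.02 on the memory-derived unstimulated arrays and of 7.75, 7.69 and 7.83 on the memory-derived stimulated arrays. Its levels on the naive-derived arrays were 8.05 and 7.97 without stimulation and 8.33, 7.80 and 8.20 with it. The 3 memory-derived unstimulated arrays were spread over more than 2 log2 units and still all lay below every other array. Stimulation raised Hk2 in memory-derived cells by a log2 difference of 2.56 ± 0.43 (5.88-fold, adjusted p = 0.00146), or by 1.97 on omitting memory-derived unstimulated array 3 (adjusted p = 0.0012). In naive-derived cells the difference was 0.10 ± 0.48 (adjusted p = 0.979). Unstimulated naive-derived cells exceeded unstimulated memory-derived cells by a log2 difference of 2.81 ± 0.48 (7.01-fold, adjusted p = 0.00221), or by 2.22 without that array. Hexokinase 1, the constitutive form, moved the other way: Hk1 fell by 0.93 ± 0.21 on the log2 scale in stimulated memory-derived cells (adjusted p = 0.00746) and did not pass in naive-derived cells (log2 difference -0.22 ± 0.24, adjusted p = 0.869). The other Hk1 probe set gave -0.46 on stimulation of memory-derived cells and did not pass (adjusted p = 0.099, limma).

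**Figure D2:**
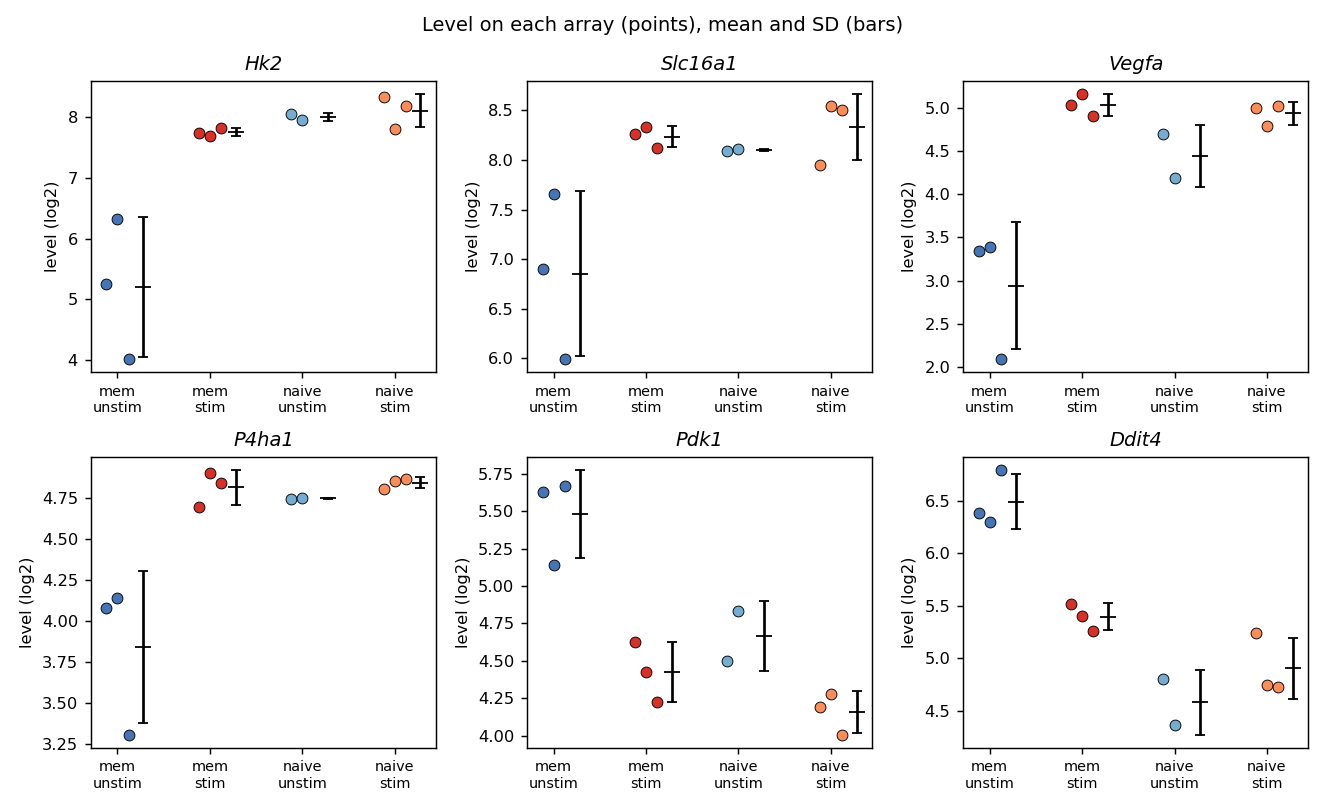
Log2 level of Hk2, Slc16a1, Vegfa, P4ha1, Pdk1 and Ddit4 on each array (points), with the mean and SD of each group (bars), for memory-derived (mem) and naive-derived cells without (unstim) and with (stim) the final stimulus. In all 6 panels the memory-derived unstimulated arrays are apart from the other groups, below them for Hk2, Slc16a1, Vegfa and P4ha1 and above them for Pdk1 and Ddit4, and array 3 is the lowest for Hk2, Slc16a1, Vegfa and P4ha1.

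Phosphofructokinase commits glucose to glycolysis, and none of its subunit genes passed a test on the probe set used. For Pfkl, the liver-type subunit, the log2 difference on stimulation of memory-derived cells was 0.57 ± 0.22 (adjusted p = 0.0742). The call appeared with the experiments as a block (adjusted p = 0.0359) and on omitting naive-derived stimulated array 1 or 2 (adjusted p = 0.0138 to 0.0445). Pfkm, the muscle-type subunit, had log2 differences between -0.38 and 0.15 in the 4 pairwise comparisons, with adjusted p from 0.232 to 0.942. Pfkp, the platelet-type subunit, was at log2 levels of 7.72, 7.32 and 7.62 in stimulated naive-derived cells and 6.79, 7.0 and 7.10 in stimulated memory-derived cells, which did not overlap. That log2 difference was 0.59 ± 0.15 (adjusted p = 0.0552), and it passed on omitting memory-derived unstimulated array 3 or naive-derived stimulated array 2 (adjusted p = 0.0391 and 0.048). Another probe set of Pfkp gave 0.59 in this comparison and passed (adjusted p = 0.0302).

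Aldolase cleaves fructose-1,6-bisphosphate and triose phosphate isomerase interconverts the products, and all 3 genes of this step had at least 1 lower call. Aldoc, the brain-type aldolase, differed by origin. Its log2 levels were 6.04, 5.21 and 4.85 in unstimulated and 5.36, 4.99 and 4.48 in stimulated memory-derived cells. In naive-derived cells they were 3.61 and 3.69 without and 3.81, 3.52 and 4.09 with stimulation, so that all 5 naive-derived arrays lay below all 6 memory-derived arrays. The log2 difference by origin was -1.72 ± 0.34 without stimulation (adjusted p = 0.0044). After stimulation it was -1.13 ± 0.30 (adjusted p = 0.0683), which passed on omitting memory-derived unstimulated array 1 or 3 (adjusted p = 0.0289 and 0.0468). Stimulation itself gave log2 differences of -0.42 ± 0.30 and 0.16 ± 0.34 in memory-derived and naive-derived cells, neither of which passed (adjusted p = 0.325 and 0.943).

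Aldoa, the aldolase found in most tissues, fell by 0.47 ± 0.12 on the log2 scale in stimulated memory-derived cells (adjusted p = 0.0133) and was lower in naive-derived than in memory-derived cells without stimulation (log2 difference -0.62 ± 0.14, adjusted p = 0.00733). The former call was lost on omitting memory-derived stimulated array 1 (adjusted p = 0.0529) and the latter on omitting naive-derived unstimulated array 2 (adjusted p = 0.0913). Tpi1, which encodes triose phosphate isomerase, had log2 levels of 8.51, 8.36 and 8.44 in unstimulated and 7.96, 7.71 and 7.72 in stimulated memory-derived cells, against 8.02 and 8.21 in unstimulated and 7.77, 8.47 and 7.59 in stimulated naive-derived cells. The memory-derived arrays did not overlap, while the stimulated naive-derived arrays spanned the unstimulated ones. Tpi1 fell by 0.64 ± 0.20 on the log2 scale in memory-derived cells (adjusted p = 0.032), a call lost on omitting memory-derived stimulated array 2 or 3 or memory-derived unstimulated array 1 or 3 (adjusted p = 0.0781 to 0.0944). The probe sets read for Aldoa, Tpi1, Pgk1, Pgd and Tkt, and for Ndrg1 below, carry the suffix that Affymetrix gives to sets whose probes can bind related transcripts, so pseudogenes and paralogs may add to these values.

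Among the later steps, only the origin difference of Pgam1 passed. Pgam1, a phosphoglycerate mutase, had log2 levels of 7.97, 8.03 and 7.68 in unstimulated memory-derived cells and 8.56 and 8.43 in unstimulated naive-derived cells. Its stimulated levels were 8.04, 8.11 and 8.17 in memory-derived and 8.25, 8.37 and 8.18 in naive-derived cells. The groups without stimulation lay well apart, and the stimulated groups were close without overlapping. The log2 difference by origin without stimulation was 0.60 ± 0.14 (adjusted p = 0.0108), which was lost on omitting naive-derived unstimulated array 1 (adjusted p = 0.088) and when arrays were scaled to the hybridization controls (0.53, adjusted p = 0.0946). Pgk1, which encodes the first ATP-forming enzyme of the pathway, had an origin difference of -0.56 ± 0.19 without stimulation (log2, adjusted p = 0.0554). It passed with the experiments as a block (adjusted p = 0.0126) and on omitting memory-derived unstimulated array 3 or naive-derived stimulated array 2 or 3 (adjusted p = 0.0292 to 0.0456), and the other 2 Pgk1 probe sets passed at -0.84 and -0.76. Pkm, which encodes muscle pyruvate kinase, was within 0.32 log2 units of 0 in every pairwise comparison and passed none (adjusted p = 0.239 to 0.978). Gapdh was read by the array's own control probe sets, outside the tests: the 3' set had mean log2 levels of 10.85 ± 0.04 (SD, n = 3), 10.55 ± 0.10 (n = 3), 10.58 ± 0.04 (n = 2) and 10.52 ± 0.17 (n = 3) in memory-derived unstimulated and stimulated and naive-derived unstimulated and stimulated cells. The 5' set had means of 12.26, 11.96, 12.12 and 12.18 in the same order, and the M set 11.72, 11.56, 11.64 and 11.19. In both of these the unstimulated arrays of the 2 origins overlapped, which they did not in the 3' set.

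Pyruvate is reduced to lactate by lactate dehydrogenase, and lactate leaves through monocarboxylate transporters. The dehydrogenase genes Ldha and Ldhb passed no test on the probe sets used, with log2 differences of -0.15 ± 0.14 and 0.03 ± 0.18 on stimulation of memory-derived cells (adjusted p = 0.443 and 0.935). Another probe set of Ldhb was higher in stimulated naive-derived than in stimulated memory-derived cells, at a log2 difference of 0.82 (adjusted p = 0.0186). Slc16a1, which encodes the transporter MCT1, had log2 levels of 6.90, 7.66 and 6.0 in unstimulated and 8.26, 8.33 and 8.12 in stimulated memory-derived cells. In naive-derived cells its levels were 8.09 and 8.11 without and 7.95, 8.54 and 8.50 with stimulation. Only the memory-derived unstimulated arrays lay below 7.9 and they ranged over more than 1.6 log2 units, in the same order of arrays as for Hk2 and Slc2a1. Slc16a1 rose in stimulated memory-derived cells by a log2 difference of 1.38 ± 0.33 (2.61-fold, adjusted p = 0.00897), or by 0.96 on omitting memory-derived unstimulated array 3 (adjusted p = 0.0175). Between the unstimulated groups the log2 difference was 1.25 ± 0.37 (adjusted p = 0.0298), a call that ended with the experiments as a block (adjusted p = 0.0519) and on omitting memory-derived unstimulated array 1 or 3 or either naive-derived unstimulated array (adjusted p = 0.0526 to 0.128). Slc16a3, which encodes the export-type transporter MCT4, was higher in naive-derived cells without stimulation by a log2 difference of 0.65 ± 0.19 (adjusted p = 0.0318). That call also ended with the block (adjusted p = 0.0554) and on omitting memory-derived unstimulated array 1 or 3 or naive-derived unstimulated array 1 (adjusted p = 0.0789 to 0.264).

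The PFKFB enzymes set the level of fructose-2,6-bisphosphate, an activator of phosphofructokinase, and the PDK kinases switch off pyruvate dehydrogenase and so keep pyruvate out of the mitochondrion. Both PDK genes of the set fell on stimulation of memory-derived cells, and neither Pfkfb3 nor Pfkfb4 passed a test (log2 differences 0.36 ± 0.21 and -0.31 ± 0.20 in that comparison, adjusted p = 0.237 and 0.289). Pdk1 had log2 levels of 5.63, 5.14 and 5.67 in unstimulated and 4.63, 4.42 and 4.22 in stimulated memory-derived cells, and of 4.50 and 4.83 in unstimulated and 4.19, 4.28 and 4.01 in stimulated naive-derived cells. It was lower on every stimulated array than on any unstimulated array of the same origin. Pdk1 fell by 1.06 ± 0.18 on the log2 scale in memory-derived cells (adjusted p = 0.00143), and its log2 difference in naive-derived cells was -0.51 ± 0.20 (adjusted p = 0.531). The difference by origin without stimulation was -0.82 ± 0.20 (log2, adjusted p = 0.0119) and was lost on omitting naive-derived unstimulated array 1 (adjusted p = 0.113). Pdk3 fell by 0.49 ± 0.17 on the log2 scale in memory-derived cells (adjusted p = 0.0453), a call at the edge: it ended with the block (adjusted p = 0.0633) and in 9 of the 11 fits that left out 1 array, all but those omitting naive-derived stimulated array 2 or 3 (adjusted p = 0.0508 to 0.131).

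In the pentose phosphate pathway, the listed genes that passed a test were lower, and the calls depended on the probe set or on single arrays. Tkt, which encodes transketolase, had log2 levels of 10.63, 9.88 and 10.82 in unstimulated and 9.65, 9.76 and 9.61 in stimulated memory-derived cells, and of 10.30 and 10.24 in unstimulated and 10.05, 10.34 and 9.98 in stimulated naive-derived cells. Array 2 of the memory-derived unstimulated group lay close to the stimulated arrays, though above them. Tkt fell by 0.77 ± 0.21 on the log2 scale in memory-derived cells (adjusted p = 0.018), but its other 2 probe sets gave -0.13 and 0.41 and did not pass, and the mean of the probe sets gave -0.17 (adjusted p = 0.353). The call was also lost on omitting memory-derived stimulated array 1 or 3 or memory-derived unstimulated array 1 or 3 (adjusted p = 0.051 to 0.071). Taldo1, which encodes transaldolase, had log2 levels of 7.25, 7.27 and 7.47 in unstimulated and 7.16, 6.95 and 6.91 in stimulated memory-derived cells, and of 6.91 and 6.76 in unstimulated and 6.97, 7.0 and 6.69 in stimulated naive-derived cells. Its unstimulated groups did not overlap. The log2 difference by origin without stimulation was -0.49 ± 0.15 (adjusted p = 0.035), which ended with the block (adjusted p = 0.0531) and on omitting memory-derived stimulated array 2, memory-derived unstimulated array 1 or 3 or either naive-derived unstimulated array (adjusted p = 0.0517 to 0.203). Pgd, which encodes 6-phosphogluconate dehydrogenase, stayed within 0.07 log2 units of 0 in every pairwise comparison and passed none.

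Oxygen is sensed by the prolyl hydroxylases of the Egln family, which act on the alpha subunit encoded by Hif1a. Hif1a itself passed no test, with a log2 difference of 0.36 ± 0.17 on stimulation of memory-derived cells (adjusted p = 0.13) that passed on omitting memory-derived unstimulated array 2 (0.49, adjusted p = 0.0492). Egln1, the main oxygen sensor of the family, had log2 levels of 4.68, 4.92 and 4.89 in unstimulated and 4.45, 4.55 and 4.50 in stimulated memory-derived cells, and of 4.71 and 4.65 in unstimulated and 4.45, 4.50 and 4.46 in stimulated naive-derived cells. The stimulated arrays were below the unstimulated ones in both origins. Egln1 fell by 0.33 ± 0.11 on the log2 scale in memory-derived cells (adjusted p = 0.0409), and its log2 difference in naive-derived cells was -0.21 ± 0.12 (adjusted p = 0.687). The first call ended with the block (adjusted p = 0.0571) and in 9 of the 11 fits that left out 1 array, all but those omitting memory-derived unstimulated array 1 or naive-derived stimulated array 2 (adjusted p = 0.0516 to 0.121).

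Egln3, a hydroxylase gene that is itself a target of hypoxia-inducible factor, separated the origins in both states. Its log2 levels were 3.66, 3.27 and 3.54 in unstimulated and 3.86, 3.93 and 3.79 in stimulated memory-derived cells. In naive-derived cells they were 4.72 and 4.67 without and 4.85, 4.97 and 5.10 with stimulation, above every memory-derived array. The log2 difference by origin was 1.21 ± 0.15 without stimulation (2.31-fold, adjusted p = 0.00046) and 1.11 ± 0.13 after it (2.16-fold, adjusted p = 0.00101), and both calls held in each fit that left out 1 array. A second Egln3 probe set gave 0.91 without stimulation (adjusted p = 0.00461) and 0.61 after it, which did not pass (adjusted p = 0.0666). Egln3 was the only 1 of the 32 genes to pass after stimulation. Its stimulation differences of 0.37 ± 0.13 in memory-derived and 0.27 ± 0.15 in naive-derived cells (log2) did not pass (adjusted p = 0.0543 and 0.658), and the former passed on omitting memory-derived unstimulated array 1 (0.46, adjusted p = 0.0397).

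**Figure D3:**
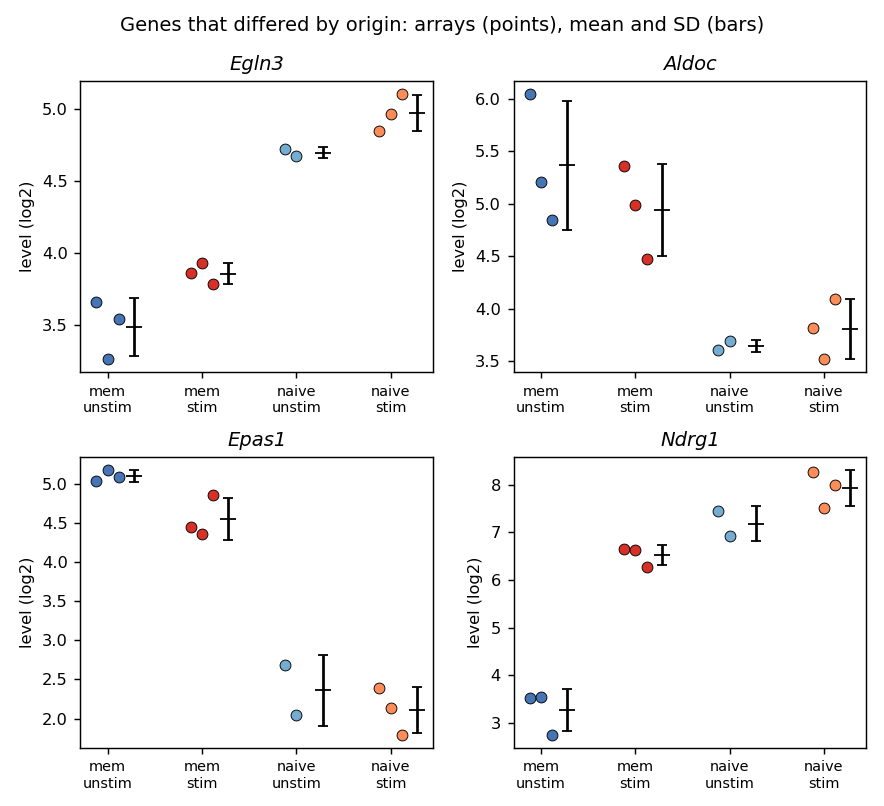
Log2 level of Egln3, Aldoc, Epas1 and Ndrg1 on each array (points), with the mean and SD of each group (bars), for memory-derived (mem) and naive-derived cells without (unstim) and with (stim) the final stimulus. The naive-derived arrays lie above every memory-derived array for Egln3 and Ndrg1 and below every one for Aldoc and Epas1, and Ndrg1 also rises between the memory-derived groups.

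The 5 hypoxia-responsive targets all passed on stimulation of memory-derived cells and all passed by origin without stimulation, in mixed directions: Vegfa, P4ha1 and Ankrd37 were higher, and Bnip3 and Ddit4 were lower. Vegfa, which encodes the vascular growth factor VEGF-A, had log2 levels of 3.34, 3.39 and 2.10 in unstimulated and 5.02, 5.15 and 4.90 in stimulated memory-derived cells, and of 4.69 and 4.18 in unstimulated and 4.99, 4.78 and 5.02 in stimulated naive-derived cells. Its 3 memory-derived unstimulated arrays lay below all others, and array 3 lay furthest down. Stimulation raised Vegfa in memory-derived cells by a log2 difference of 2.09 ± 0.30 (4.24-fold, adjusted p = 0.000622), or by 1.66 without array 3 (adjusted p = 0.000267), and the response of naive-derived cells was 0.49 ± 0.33 (adjusted p = 0.748). Unstimulated naive-derived and memory-derived cells differed by 1.50 ± 0.33 (log2, adjusted p = 0.00776), or 1.08 without that array, and the call was lost on omitting naive-derived unstimulated array 1 (adjusted p = 0.0791).

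P4ha1, which encodes a catalytic subunit of the collagen prolyl hydroxylase, had log2 levels of 4.08, 4.14 and 3.31 in unstimulated and 4.69, 4.90 and 4.84 in stimulated memory-derived cells, and of 4.74 and 4.75 in unstimulated and 4.80, 4.85 and 4.87 in stimulated naive-derived cells. Again only the memory-derived unstimulated group stood apart, and its array 3 was the lowest. P4ha1 rose in stimulated memory-derived cells by a log2 difference of 0.97 ± 0.19 (adjusted p = 0.00364) and was higher in naive-derived cells without stimulation by 0.90 ± 0.22 (adjusted p = 0.0116). The origin call was lost on omitting either naive-derived unstimulated array (adjusted p = 0.0664 and 0.0706). Memory-derived unstimulated array 3 was the lowest of its group for 6 of the 6 genes that rose on stimulation and the highest for 5 of the 9 that fell. These counts were not made over all genes tested, so they have no background to be set against. On omitting that array, 6 of the 32 genes rose and 6 fell on stimulation of memory-derived cells, and 6 were higher and 6 lower by origin without stimulation. In that fit 24.2% of all genes passed on stimulation of memory-derived cells and 20.9% by origin without stimulation, in either direction.

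Bnip3 and Ddit4 are induced by low oxygen in many cells, Bnip3 encoding a mitophagy receptor and Ddit4 an inhibitor of mTORC1, and both were highest in unstimulated memory-derived cells. Bnip3 had log2 levels of 5.96, 5.99 and 5.59 in unstimulated and 5.24, 4.98 and 5.08 in stimulated memory-derived cells, and of 5.37 and 5.00 in unstimulated and 4.99, 5.02 and 4.59 in stimulated naive-derived cells. It fell by 0.75 ± 0.17 on the log2 scale in memory-derived cells (adjusted p = 0.00734). By origin without stimulation its log2 difference was -0.66 ± 0.19 (adjusted p = 0.0268), which was lost on omitting memory-derived unstimulated array 1 or 2 or naive-derived unstimulated array 2 (adjusted p = 0.0631 to 0.217).

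Ddit4 and Ankrd37, which encodes an ankyrin repeat protein, were the only members of the set for which the response to stimulation differed between origins by the interaction term, beside 2.71% of all genes tested (1.62% above 0, as Ddit4, and 1.09% below 0, as Ankrd37). Ddit4 had log2 levels of 6.39, 6.30 and 6.80 in unstimulated and 5.52, 5.41 and 5.26 in stimulated memory-derived cells, and of 4.80 and 4.36 in unstimulated and 5.24, 4.74 and 4.73 in stimulated naive-derived cells. The memory-derived groups did not overlap, whereas the naive-derived groups did. Ddit4 fell by 1.10 ± 0.19 on the log2 scale in memory-derived cells (adjusted p = 0.00179), with a log2 difference of 0.32 ± 0.21 in naive-derived cells (adjusted p = 0.748), and the interaction was 1.42 ± 0.29 (adjusted p = 0.0367). Between unstimulated groups it was lower in naive-derived cells, at a log2 difference of -1.91 ± 0.21 (3.76-fold, adjusted p = 0.000328). Ankrd37 had log2 levels of 2.56, 2.50 and 2.17 in unstimulated and 3.76, 3.78 and 3.42 in stimulated memory-derived cells, and of 3.05 and 3.28 in unstimulated and 3.37, 3.22 and 3.20 in stimulated naive-derived cells. Its stimulated memory-derived arrays were the highest and its unstimulated memory-derived arrays the lowest of the 11. Ankrd37 rose in memory-derived cells by a log2 difference of 1.24 ± 0.15 (2.37-fold, adjusted p = 0.000297), with 0.10 ± 0.17 in naive-derived cells (adjusted p = 0.927), and the interaction was -1.14 ± 0.23 (adjusted p = 0.0362). The origins differed without stimulation at 0.76 ± 0.17 (log2, adjusted p = 0.00821), which was lost on omitting naive-derived unstimulated array 2 (adjusted p = 0.0835) and on scaling to the hybridization controls (0.69, adjusted p = 0.0724).

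Neither interaction call was stable at its threshold. With the experiments as a block the adjusted p was 0.0649 for Ddit4 and 0.0634 for Ankrd37, and this block took the genes called in the interaction from 401 to 26 of all genes tested. That number also moved with single arrays, to 1505 on omitting memory-derived unstimulated array 2 and to 482 on omitting array 3. It fell to 187 on omitting array 1 of that group. Omitting a memory-derived stimulated array took it down to between 19 and 75, and omitting a naive-derived stimulated array to between 36 and 210. The number of genes called was lowest on omitting either naive-derived unstimulated array, which leaves 1 array in that group. For each gene 8 of the 11 fits that left out 1 array ended the call, for Ddit4 all but those omitting memory-derived unstimulated array 2 or 3 or naive-derived stimulated array 3 (adjusted p = 0.0572 to 0.133) and for Ankrd37 all but those omitting a memory-derived unstimulated array (adjusted p = 0.0536 to 0.132). The sign of both terms was the same in every such fit. For 10 of the 32 genes the interaction had an unadjusted p below 0.05, as for 23.3% of all genes. Hk2 and Vegfa had interaction terms of -2.46 ± 0.64 and -1.59 ± 0.44 (log2, adjusted p = 0.0641 and 0.0736), which passed on omitting memory-derived unstimulated array 2 (-3.02 and -1.82, adjusted p = 0.00909 and 0.0329) or 3 (-1.87 and -1.17, adjusted p = 0.0387 and 0.0356). Without array 2 of that group the terms of Slc2a1 (-0.77), Slc16a1 (-1.55), Tkt (0.90) and P4ha1 (-1.03) passed as well (adjusted p = 0.0268, 0.0313, 0.0273 and 0.0491).

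**Figure D4:**
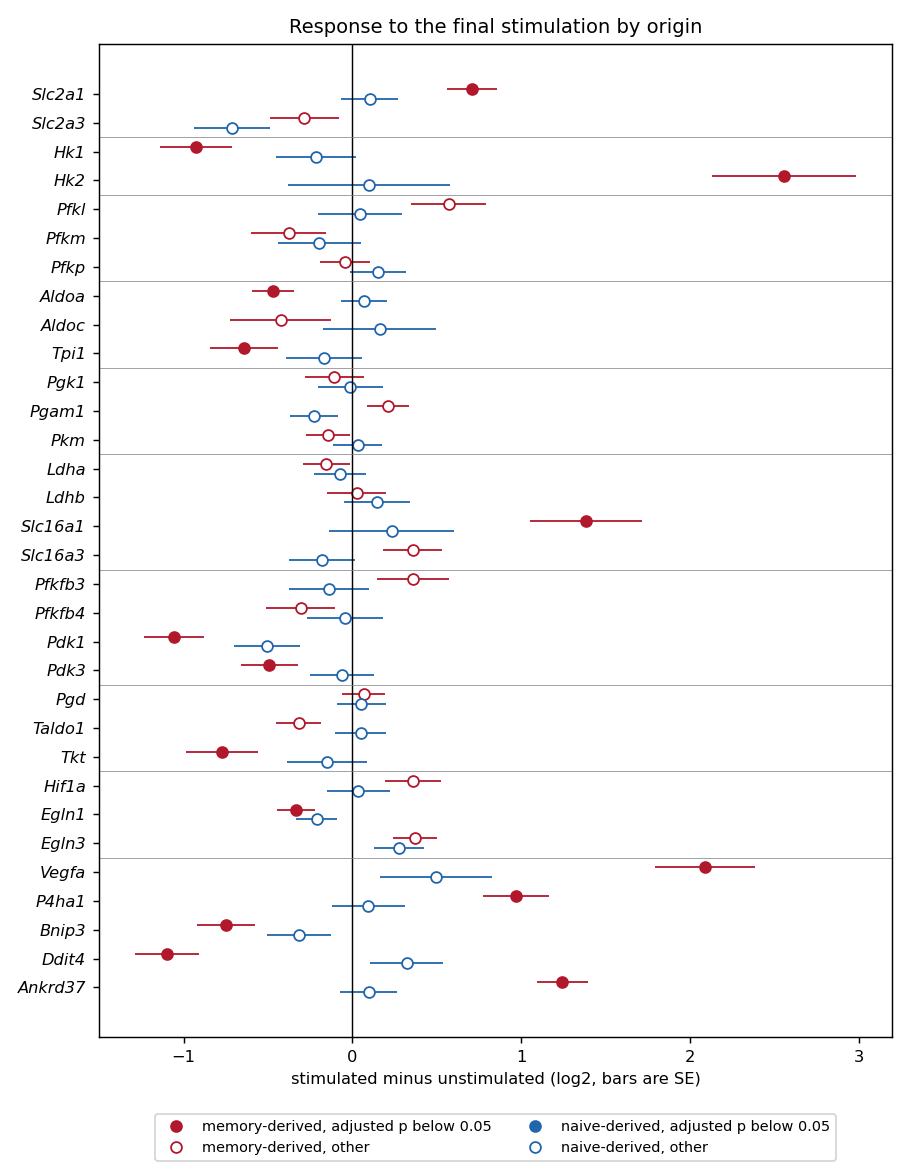
Log2 difference between stimulated and unstimulated cells for each of the 32 genes (points, with bars for the SE), in memory-derived (red) and naive-derived (blue) cells, filled where the adjusted p was below 0.05. There are 15 filled points for memory-derived cells, from Ddit4 at -1.10 to Hk2 at 2.56, and none for naive-derived cells, whose differences lie between -0.71 and 0.49.

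The stretch before a listed start site of the targets shows where letters of the hypoxia response element lie, and the sequences of 3 genes that rose and 2 that fell in stimulated memory-derived cells are given for this reason. Each is the 250 bases upstream of the start listed in the RefSeq promoter table on build GRCm38.p6, 5' to 3' on the strand of the gene, for genes with a single start in that table. Capitals mark ACGTG or GCGTG, the core of that element, on either strand (read as CACGT or CACGC on the other strand). Hk2 is at chr6:82774455-82774704 (minus strand), Ankrd37 at chr8:45999851-46000100 (minus), P4ha1 at chr10:59323046-59323295 (plus), Ddit4 at chr10:59951771-59952020 (minus) and Bnip3 at chr7:138909507-138909756 (minus). The first 3 rose and the last 2 fell. The RefSeq gene table of the same build places the windows of Hk2, Ddit4 and Bnip3 outside the gene, but all 250 bases of the Ankrd37 window and 99 bases of the P4ha1 window inside the span of their gene, which begins further upstream than the listed start.
Hk2: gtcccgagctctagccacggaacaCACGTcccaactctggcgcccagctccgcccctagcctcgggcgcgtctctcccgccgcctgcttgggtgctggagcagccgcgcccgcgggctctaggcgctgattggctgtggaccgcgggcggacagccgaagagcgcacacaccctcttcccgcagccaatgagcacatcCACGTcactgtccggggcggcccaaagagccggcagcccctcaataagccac
Ankrd37: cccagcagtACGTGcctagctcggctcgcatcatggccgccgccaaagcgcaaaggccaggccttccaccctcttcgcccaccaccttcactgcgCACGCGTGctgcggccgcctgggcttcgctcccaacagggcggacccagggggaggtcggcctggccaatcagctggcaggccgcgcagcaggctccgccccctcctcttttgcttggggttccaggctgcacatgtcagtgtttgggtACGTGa
P4ha1: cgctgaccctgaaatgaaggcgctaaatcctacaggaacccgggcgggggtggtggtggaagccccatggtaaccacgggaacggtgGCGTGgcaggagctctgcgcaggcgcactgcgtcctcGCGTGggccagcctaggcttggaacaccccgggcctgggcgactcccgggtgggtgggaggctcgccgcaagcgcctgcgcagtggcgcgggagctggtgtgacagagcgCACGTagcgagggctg
Ddit4: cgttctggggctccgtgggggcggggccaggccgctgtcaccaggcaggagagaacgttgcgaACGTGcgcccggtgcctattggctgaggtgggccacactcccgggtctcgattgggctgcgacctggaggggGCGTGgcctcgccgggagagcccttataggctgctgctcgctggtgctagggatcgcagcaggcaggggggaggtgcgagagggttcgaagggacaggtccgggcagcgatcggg
Bnip3: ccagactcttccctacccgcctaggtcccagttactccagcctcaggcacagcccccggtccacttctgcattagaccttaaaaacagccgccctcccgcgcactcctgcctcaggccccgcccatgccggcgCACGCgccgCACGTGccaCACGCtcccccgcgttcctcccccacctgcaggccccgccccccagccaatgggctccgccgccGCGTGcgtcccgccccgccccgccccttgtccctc

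The windows of Hk2, Ankrd37, P4ha1, Ddit4 and Bnip3 held 2, 4, 3, 2 and 5 matches to the core, so genes that rose and genes that fell both carried it. In Bnip3 a pair of these matches shared the palindrome CACGTG, the letters of an E-box. Of the 36 listed genes, 35 had an entry in the RefSeq table, with 50 upstream windows in all. The core was present in 41 of these 50 windows (82.0%), where 38.6% of all 32851 windows of the same length held it. By call it was present in 6 of 7 windows of genes that rose, 9 of 13 of genes that fell and 21 of 24 of measured genes that did not pass. ACGTG alone was in 46.0% of the windows of the set and 16.6% of all windows, and CACGTG in 12.0% and 6.02%. The median GC content was 60.8% in the set and 52.4% over all windows. All of these motifs contain the letters CG, and the median number of CG pairs in a window was 14 in the set and 6 over all windows. The part of base content and of CG pairs in these shares was not tested. A match is a run of letters and not evidence of binding.

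**Figure D5:**
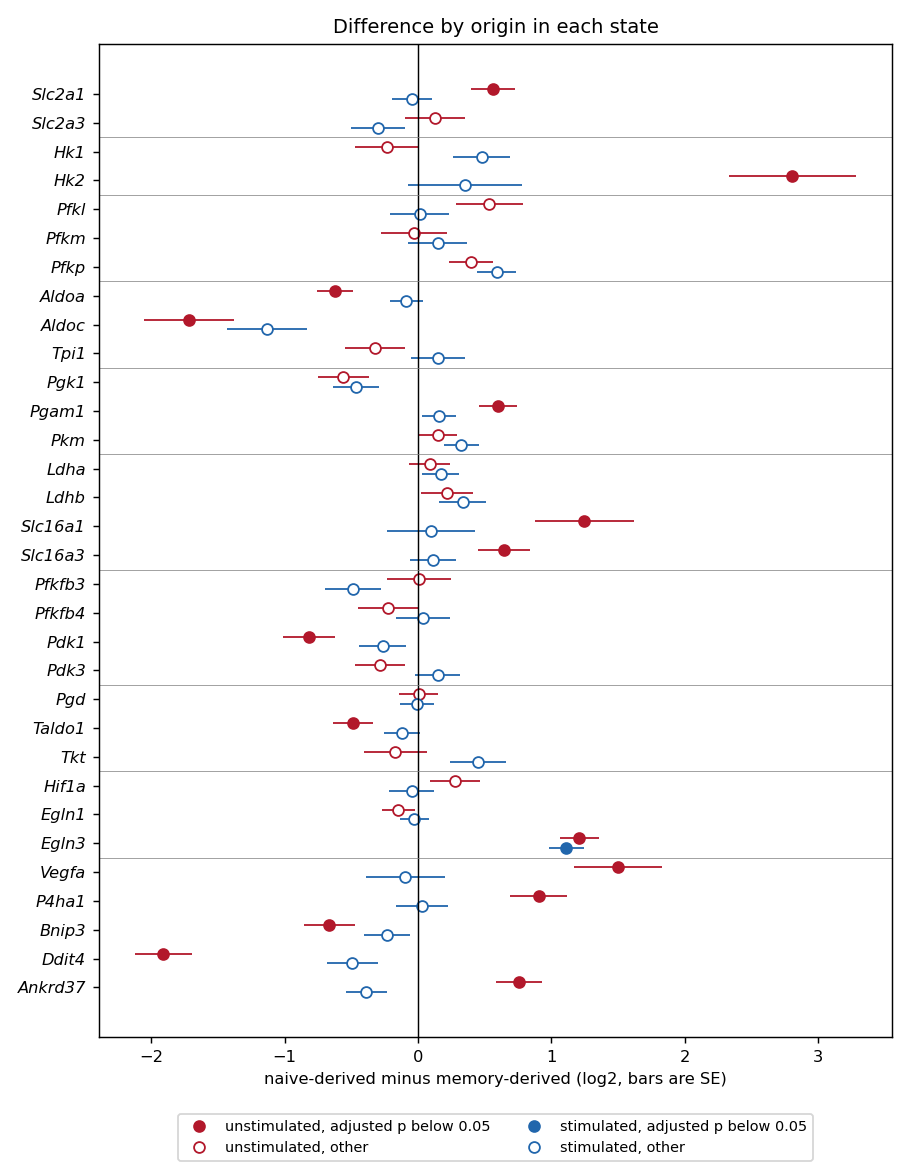
Log2 difference between naive-derived and memory-derived cells for each of the 32 genes (points, with bars for the SE), without (red) and with (blue) the final stimulus, filled where the adjusted p was below 0.05. Without stimulation 15 points are filled, from Ddit4 at -1.91 to Hk2 at 2.81, and after stimulation Egln3 at 1.11 alone is filled.

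Other genes of the same pathways were taken from lists by function. Among 24 tested genes of glucose metabolism outside the set (32 listed), stimulation of memory-derived cells raised 4 (16.7%, and 14.3% of all genes) and lowered 2 (8.33%, and 17.3% of all genes). Among the called were Adpgk, an ADP-dependent glucokinase, at a log2 difference of 0.92, Bpgm, the enzyme of 2,3-bisphosphoglycerate, at -0.91 and Tigar, a fructose-2,6-bisphosphatase, at 0.89. Without stimulation 2 were higher (8.33%, and 10.9% of all genes) and 1 lower (4.17%, and 14.9% of all genes) in naive-derived cells, with Bpgm at -1.23, Adpgk at 0.90 and Pdp1, a pyruvate dehydrogenase phosphatase, at 0.62. The origin calls of Adpgk and Pdp1 ended with the block (adjusted p = 0.0679 and 0.0785), and those of Bpgm did not (adjusted p = 0.00523). Adpgk also lost its stimulation call on omitting memory-derived stimulated array 3 or memory-derived unstimulated array 1 or 3 (adjusted p = 0.0545 to 0.0719).

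Of 10 other pentose phosphate genes, 1 rose and 4 fell in stimulated memory-derived cells, and 1 was higher and 4 lower in naive-derived cells without stimulation. In both comparisons this was 10% higher and 40% lower, where all genes had 14.3% and 17.3% on stimulation and 10.9% and 14.9% by origin. H6pd, which encodes the glucose-6-phosphate dehydrogenase of the endoplasmic reticulum, led in both (log2 differences -1.11 ± 0.20, adjusted p = 0.00218, and -1.58 ± 0.22, adjusted p = 0.000893). Shpk, 1 of the 4 lower by origin, exceeded the filter on only 2 arrays. Both were memory-derived unstimulated arrays (log2 levels 2.01 and 1.64), the group where it was higher, so its place among the tested genes rests on that group. Its origin call was also lost in most fits that left out 1 array. The ribose-phosphate pyrophosphokinase genes moved in opposite directions: Prps1 rose by a log2 difference of 1.06 ± 0.18 (adjusted p = 0.00143) and Prps2 fell by 0.79 ± 0.17 on the log2 scale (adjusted p = 0.00585). Between the unstimulated origins their log2 differences were 0.95 and -0.80 (adjusted p = 0.00582 and 0.0124), and both were lost on omitting naive-derived unstimulated array 2 (0.86 and -0.48, adjusted p = 0.0577 and 0.147).

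Among 19 other hypoxia genes, 3 rose (15.8%, and 14.3% of all genes) and 5 fell (26.3%, and 17.3% of all genes) in stimulated memory-derived cells, with Ndrg1 at 3.25, P4ha2 at 1.14 and Bhlhe40 at -0.67 (log2 differences), the last of which was lost with the block (adjusted p = 0.051) and in 10 of the 11 fits that left out 1 array. By origin without stimulation 1 was higher and 2 lower (5.26% and 10.5%, where 10.9% and 14.9% of all genes were), and after stimulation 1 was higher and 1 lower (5.26% each, where 1.69% and 2.01% of all genes were). Ndrg1, a stress-responsive gene of growth-arrested cells, had log2 levels of 3.52, 3.54 and 2.76 in unstimulated and 6.65, 6.63 and 6.28 in stimulated memory-derived cells, and of 7.44 and 6.92 in unstimulated and 8.27, 7.52 and 8.0 in stimulated naive-derived cells. No group overlapped its neighbour when the groups are taken in that order. Its log2 difference by origin was 3.91 ± 0.29 without stimulation (adjusted p = 3.47e-05) and 1.41 ± 0.26 after it (adjusted p = 0.0118), the latter lost without array 3 of either stimulated group (adjusted p = 0.0504 and 0.0541). The interaction was -2.50 ± 0.38 (adjusted p = 0.0207, or 0.0474 with the block), and it was lost on omitting memory-derived stimulated array 2 or either naive-derived unstimulated array (adjusted p = 0.0595 to 0.105).

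Epas1, which encodes the alpha subunit HIF-2alpha, followed origin and was lower in naive-derived cells. Its log2 levels were 5.04, 5.18 and 5.10 in unstimulated and 4.46, 4.36 and 4.87 in stimulated memory-derived cells, against 2.68 and 2.04 in unstimulated and 2.39, 2.14 and 1.80 in stimulated naive-derived cells. More than 1.5 log2 units separated the lowest memory-derived array from the highest naive-derived array. The log2 difference by origin was -2.75 ± 0.23 without stimulation (adjusted p = 7.96e-05) and -2.45 ± 0.21 after it (adjusted p = 0.000107), and both calls held in each fit that left out 1 array. Hif1a, by contrast, gave -0.05 ± 0.17 between the stimulated groups (log2, adjusted p = 0.925). Plod1, a collagen lysyl hydroxylase gene, was the other hypoxia gene lower by origin without stimulation, at -0.67 (log2, adjusted p = 0.0259), and it was lost on omitting memory-derived unstimulated array 1 or 3 or either naive-derived unstimulated array (adjusted p = 0.0714 to 0.13).

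The remaining probe sets of the same genes gave a check on the chosen ones. For stimulation of memory-derived cells, 10 of the 15 called genes had 17 other probe sets, of which 15 had the same sign and 10 passed in the same direction, and none passed in the opposite direction. For origin without stimulation, 8 of the 15 called genes had 13 other sets, of which 12 had the same sign and 6 passed. After stimulation Egln3, the called gene, had 1 other set, which had the same sign and did not pass. Among genes not called on their chosen set, 0 of 21 other sets passed on stimulation of memory-derived cells and 3 of 25 by origin without stimulation, namely those of Pgk1 and one of Tpi1 (-0.66, adjusted p = 0.0116). After stimulation 2 of 37 passed by origin, those of Pfkp and Ldhb. Across the fits that left out 1 array, 10 of the 15 stimulation calls (Slc2a1, Hk1, Hk2, Slc16a1, Pdk1, Vegfa, P4ha1, Bnip3, Ddit4 and Ankrd37) held in every fit, and 4 of the 15 origin calls without stimulation did (Hk2, Aldoc, Egln3 and Ddit4). The share of all genes whose calls held in every fit was not counted. The 2 comparisons are unlike in this, since omitting a naive-derived unstimulated array leaves that group with 1 array.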

How the data were processed

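RNA was extracted, labelled with a one-cycle 3' amplification kit and hybridised to 11 arrays, per the labels' protocols. The authors deposited values on a log10 scale, which is inferred here: the hybridization controls stepped by 0.944, 1.02 and 1.77 per unit of log10 concentration, and the last step leaves some doubt. Affymetrix Expression Console is the software in the submitters' processing notes, and the summarization is not given in the sources used here. The deposited values were quantile normalized, since all arrays hold the same sorted values (0 to 4.56, median 0.554). They are compressed near 0 and carry no depth, so precision is limited by how many arrays there are.

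Values were multiplied by 3.32 to give log2. Of 45101 probe sets, 64 were controls, 34945 had 1 gene symbol, 932 several and 9160 none listed; 34741 identifiers matched the gene table. A gene was tested if its probe set exceeded the array's 40th percentile (log2 level 1.54) on at least 2 arrays. All 11 arrays and all tested genes entered 1 linear model with a mean for each of the 4 groups, in limma 3.58.1 in R 4.3.3 (lmFit, eBayes; 7 residual and 3.86 prior degrees of freedom), checked on simulated data. Tests are two-sided, p-values were adjusted per comparison (Benjamini-Hochberg), and calls are at 0.05. Figures used matplotlib 3.10.9 in Python 3.11.15. Motifs were counted on both strands, overlaps included.

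The labels give a biological replicate number, which was taken here as the number of the experiment and so as pairing arrays. Deviations from group means correlated at -0.0716 to 0.112 within experiments (15 pairs, median 0.0341) and at -0.131 to 0.112 between them (30 pairs, median -0.0036). The model held no block, and the fit with the experiments as a block stands beside each result whose call it changes. Other alternatives were no filter, a stricter filter, the mean of a gene's probe sets, scaling to hybridization controls, a prior variance that follows expression, experiments 1 and 2 only, and each array left out. The naive-derived unstimulated group has 2 arrays, so omitting either leaves 1. Fewer of all genes, and not only of the members, were called by origin without stimulation in those fits.

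The members and the lists were chosen with earlier results of these data known. Array values are given for members called in the interaction, and in each role group for the called member with the largest log2 difference on stimulation of memory-derived cells and by origin without stimulation; P4ha1, Bnip3, Pfkp, Ndrg1 and Epas1 were added after their values were seen. Other pathway genes are named as the 3 largest called in a comparison. Correlations between members are not given, because the arrays fall into separate groups.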

Additional observations from a re-analysis of the deposited data

Results flagged for a closer look

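The response to stimulation differed between origins by the interaction term for 3 of the genes reported. The share called was 6.25% of the 32 members and 2.71% of all genes tested. Ddit4 had an interaction of 1.42 on the log2 scale (naive-derived response minus memory-derived response): it fell by 1.10 in memory-derived cells, and its difference of 0.32 in naive-derived cells did not pass. Ankrd37 had an interaction of -1.14: it rose by 1.24 in memory-derived cells, and its difference of 0.10 in naive-derived cells did not pass. For Ndrg1, outside the set, the interaction was -2.50. The calls of Ddit4 and Ankrd37 ended with the experiments as a block (adjusted p = 0.0649 and 0.0634, limma), and that of Ndrg1 did not (adjusted p = 0.0474). Of the 11 fits that left out 1 array, 8 ended the call for Ddit4, 8 for Ankrd37 and 3 for Ndrg1. The causes of these differences were not tested.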

How the results depend on the processing

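No member reversed its direction past the threshold under any alternative: of 2875 member values, 2727 kept their side of the threshold, 105 lost and 43 gained a call. On stimulation of memory-derived cells the 9 members that fell were 5 on scaling to the hybridization controls and 4 with experiments 1 and 2 only, and 5 to 9 in fits without 1 array. The share of all genes called in this comparison went from 31.6% to 22.3% on that scaling and to 18.6% with experiments 1 and 2 only. By origin without stimulation the 9 higher members were 5 on control scaling, where the share of all genes called went from 25.8% to 18.2%. On omitting 1 array of a group of 3, the higher members were 6 to 10 and the 6 lower were 4 to 7. After stimulation the 1 higher member was 2 with the stricter filter and with the prior following expression (1 to 2 without 1 array). The 0 lower members were 1 with that filter, with that prior and with experiments 1 and 2 only (0 to 1 without 1 array). In the interaction the 1 higher member (Ddit4) was 0 with the replicate block, without a filter, on control scaling and with experiments 1 and 2 only, and 0 to 2 without 1 array. The 1 lower (Ankrd37) was 0 with the replicate block, on control scaling and with experiments 1 and 2 only, 3 with the stricter filter and with the prior, and 0 to 6 without 1 array. Of all genes, 3.7% were called by origin after stimulation, against 4.64% with the prior following expression and 1.74% with experiments 1 and 2 only. In the interaction 2.71% of all genes were called. That share was 0.176% with the replicate block, 1.05% on control scaling, 0.331% with experiments 1 and 2 only and 7.45% with the prior. The causes of these changes were not tested. The block changed no other call among the members beside those given with their genes. Control scaling took the median log2 difference of all genes from -0.01 to -0.12 by origin after stimulation, where Egln3 was then at 1.01, and moved it by less than 0.1 in the other comparisons. Under it the share of called genes that were higher went from 45.6% to 31.1% by origin after stimulation and from 59.6% to 49.0% in the interaction. With 2 or 3 arrays a group, small differences could not be resolved.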
